A study of Homo sapiens with 16 samples.

Results

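Of the 195421 regions in the table of H3K27Ac, histone H3 acetylated at lysine 27, 72370 (37.0%) shared not a single base with a region called for any of the 6 other targets of the study. They are the acetylated regions with neither CTCF, nor cohesin, nor RNA polymerase II, and they were chosen by position alone, with an overlap of 1 bp, without use of their H3K27Ac levels. The other acetylated regions fell into 35115 (18.0%) that overlapped CTCF or cohesin only, 30060 (15.4%) that overlapped polymerase only, and 57876 (29.6%) that overlapped both polymerase and CTCF or cohesin.

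Chromatin immunoprecipitation followed by sequencing was done in HCT116, a line of colorectal carcinoma cells, and in DKO, the derivative of HCT116 in which the genes of the DNA methyltransferases DNMT1 and DNMT3B are disrupted. Both were grown in the same medium with serum and without further treatment named in the labels. The 6 other targets were the boundary protein CTCF, the cohesin subunits RAD21 and SMC1, polymerase phosphorylated at serine 5 or at serine 2 of its C-terminal repeat (Pol2Ser5 and Pol2Ser2), and total polymerase (TotalRNAPol2, so called by the sample titles, although the antibody given in the labels is that of Pol2Ser5). A single library was made per line and target. Differences between the lines therefore have no replicate check, and none was tested. DKO is a knockout line made from HCT116, and differences between the lines that are not due to the disrupted genes cannot be told apart from those that are.

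H3K27Ac is laid down by the acetyltransferases p300 and CBP on nucleosomes beside active promoters and active enhancers, and it separates active enhancers from poised ones. Active promoters carry RNA polymerase II with serine 5 phosphorylated, transcribed gene bodies carry the serine 2 form, and active enhancers often bind polymerase as well and make short transcripts. CTCF and cohesin mark loop anchors and domain boundaries. Acetylation without any of these is known at the flanks of active elements, at weaker enhancers and across broad acetylated domains.

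The table gives for each region a normalized read density in each line, their mean log2 density and M, the log2 of the density in DKO divided by that in HCT116. Densities have the authors' scale and are comparable within the H3K27Ac table. A negative M means a lower density in DKO. The reads were counted by the authors in a window of 2 kb per region, whatever its length. The regions without another target had a median length of 248 bp, and a window centred on them, which is assumed here since its placement is not stated, held bases of another acetylated region for 70.8% of them. The densities of these include reads of neighbours. No sequence is printed, since no genome of the build of the files, hg19, was used here.

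The regions without another target were weakly acetylated in both lines. Their median density was 35.0 in DKO (95% interval 34.9 to 35.2) and 36.4 in HCT116 (36.2 to 36.5), from a median of 63 and 79 reads per window. In DKO the density ran from 10.6 at the 5th to 73.0 at the 95th percentile, and in HCT116 from 11.9 to 72.6. The highest density was 414 in DKO and 378 in HCT116. The distributions in the lines thus overlapped over nearly their whole range. There were 13 members with 0 reads in DKO and 7 with 0 reads in HCT116. The intervals cover the spread of regions within these libraries only, since regions are not replicates.

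Acetylated regions with other targets had higher densities. Those with CTCF or cohesin only had medians of 40.5 in DKO and 42.7 in HCT116, and those with polymerase only had 41.9 and 41.2. Where polymerase and CTCF or cohesin both overlapped, the medians were 66.2 and 62.7. The median over all acetylated regions was 43.1 in DKO and 43.5 in HCT116. In both lines the order was the same at its ends: lowest without another target and highest with both kinds.

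**Figure D1:**
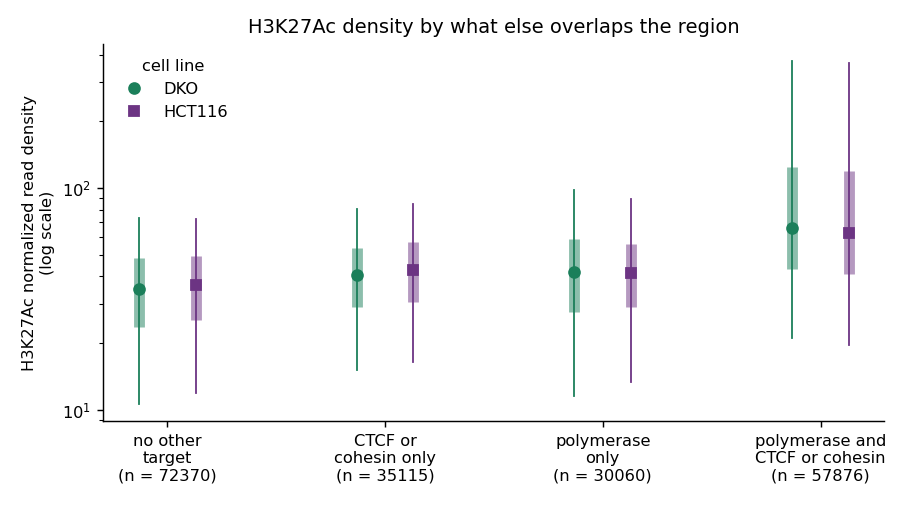
H3K27Ac normalized read density (log scale) in DKO (circles) and HCT116 (squares) for acetylated regions grouped by the other targets that overlap them; markers are medians over regions, thick bars run from the 25th to the 75th percentile and thin lines from the 5th to the 95th, with 1 library per line. Regions without another target have the lowest medians, 35.0 in DKO and 36.4 in HCT116, against 66.2 and 62.7 where polymerase and CTCF or cohesin both overlap. The groups are not matched for length, and the median length of these 2 groups is 248 bp and 834.5 bp.

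They were also short. Of the regions without another target, 64.1% were under 300 bp and 2.00% were 1 kb or longer, while 45.2% of the regions with polymerase and CTCF or cohesin reached 1 kb. The median length was 311 bp with CTCF or cohesin only, 303 bp with polymerase only and 834.5 bp with both. Together the regions without another target covered 23.2 Mb of the 142 Mb of acetylated sequence. A longer region has a greater chance of touching a region of another target, so length is tied to the way the regions were chosen. In the shortest quintile of length over all acetylated regions, the median densities without another target were 31.0 in DKO and 30.5 in HCT116. With polymerase and CTCF or cohesin they were 40.3 and 37.6 there. In the longest quintile they were 53.2 and 60.3 without another target, against 116.0 and 112.9 with both kinds. The regions without another target had the lowest medians in every quintile of length.

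The share without another target fell with density and length. When all acetylated regions were divided into deciles of mean log2 density, 59.3% of the lowest decile and 2.74% of the highest had no other target. By length, the share fell from 57.5% in the shortest decile to 1.26% in the longest.

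The authors called each region in both lines, in DKO only or in HCT116 only (the Peak_Group of the table). Both lines had a call at 9808 of the regions without another target (13.6%), against a background of 31.7% of all acetylated regions. In DKO only 25154 (34.8%) were called, against 28.7% of all, and in HCT116 only 37408 (51.7%), against 39.5% of all. The share called in both lines was 26.9% with CTCF or cohesin only, 23.9% with polymerase only and 61.5% with both. Read the other way, regions without another target made up 15.8% of the acetylated regions called in both lines, 44.8% of those called in DKO only and 48.4% of those called in HCT116 only.

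**Figure D2:**
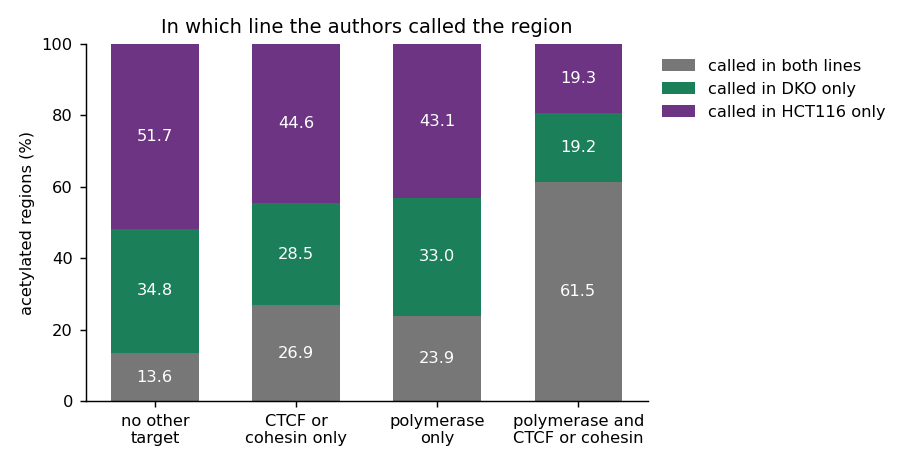
Share of acetylated regions (%) with a call by the authors in both lines (grey), in DKO only (green) or in HCT116 only (purple), for regions grouped by the other targets that overlap them. Without another target 13.6% were called in both lines, and with polymerase and CTCF or cohesin 61.5% were.

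A lower density went with a lower share called in both lines in every class, so the classes were also set side by side within quintiles of the mean log2 density over all acetylated regions. From the lowest to the highest quintile, the share of regions without another target called in both lines was 1.74%, 6.63%, 15.7%, 32.1% and 47.5%. With polymerase only the same shares were 2.48%, 10.3%, 21.6%, 39.2% and 59.8%. With CTCF or cohesin only they were 2.77%, 11.4%, 22.9%, 43.7% and 70.3%. In each quintile the regions without another target had the lowest share. With polymerase and CTCF or cohesin the share reached 91.9% in the highest quintile. Density was not alike within that quintile: the median in DKO was 127.5 for these regions and 75.4 without another target. Their median lengths there were 2050 bp and 352 bp. Regions with CTCF or cohesin only (672.5 bp) and with polymerase only (446 bp) were also longer there than those without another target. By quintiles of length, the share of regions without another target called in both lines was 0.50% among the shortest and 58.1% among the longest. With polymerase only these shares were 0.84% and 60.4%, with CTCF or cohesin only 0.80% and 72.3%, and with both kinds 1.38% and 88.3%.

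**Figure D3:**
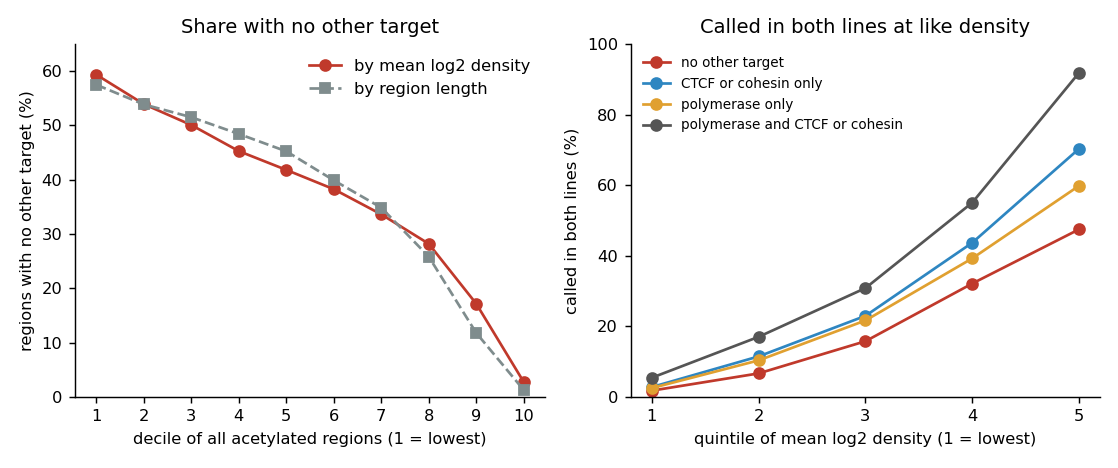
Left, share of acetylated regions with no other target (%) in deciles of mean log2 density (circles) and of region length (squares), from lowest to highest; right, share called in both lines (%) in quintiles of mean log2 density for the 4 classes of regions. The share with no other target falls from 59.3% to 2.74% across the deciles of density, and within each quintile the regions with no other target have the lowest share called in both lines.

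A call in 1 line did not mean that the density was much lower in the other. Regions without another target called in DKO only had a median density of 40.9 in DKO and 25.4 in HCT116, with a median M of 0.61. Those called in HCT116 only had 27.4 in DKO and 39.4 in HCT116, with a median M of -0.49. Of the former 42.1%, and of the latter 49.4%, had an M within 0.5 of 0. A 2-fold difference in the direction of the call was reached by 31.2% of those called in DKO only and by 22.5% of those called in HCT116 only. Acetylated regions with polymerase had like shares, 35.9% and 25.5% past 2-fold and 38.3% and 49.1% with an M within 0.5 of 0. Regions called in both lines had the highest medians, 50.7 (DKO) and 51.0 (HCT116), and an M within 0.5 of 0 was found at 74.4%.

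Over all 72370 regions without another target the median M was -0.10 (95% interval -0.11 to -0.09), and the quartiles were -0.56 and 0.42. At least 2-fold higher in DKO were 8116 (11.2%), against 11.0% of all acetylated regions, and at least 2-fold higher in HCT116 were 8627 (11.9%), against 10.4% of all. At least 4-fold differences were seen at 2252 regions toward DKO (3.11%, against 3.27% of all) and at 2226 toward HCT116 (3.08%, against 2.69% of all). These shares lie near those of all acetylated regions. Of the members past 2-fold 48.5% were higher in DKO, and this balance changed sides with the scaling: it was 52.2% when M was centred on the median of all acetylated regions and 42.7% when the authors' line was replaced by a constant. An M within 0.5 of 0 was found at 50.3% of the regions without another target.

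The median M was -0.12 with CTCF or cohesin only and 0.01 at all acetylated regions with polymerase. On 23 of 23 chromosomes other than Y, the median M of the regions without another target lay below that of the acetylated regions with polymerase. This held on 23 of 23 when the authors' line was replaced by a constant, and all chromosomes share the same 2 libraries. In the lowest quintile of mean log2 density, the median M was -0.22 without another target and -0.38 with polymerase only. In each higher quintile it was lower without another target than with polymerase only. Against regions with polymerase and CTCF or cohesin it was lower in every quintile. The lower medians over all densities were shared with the regions with CTCF or cohesin only and were not particular to the regions without another target.

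The distance to polymerase depended on which acetylated regions counted as having it. The gap to the nearest acetylated region with polymerase had a median of 2700 bp (95% interval 2649 to 2759), with quartiles of 627 bp and 11.4 kb. It was under 1 kb for 32.3% of them, under 5 kb for 60.8%, under 20 kb for 83.2% and under 100 kb for 96.8%. These gaps count a region of any of the 3 polymerase tables, and the median was 5291 bp to acetylated regions with Pol2Ser5 and 22442 bp to those in all 3 tables. The median for regions with CTCF or cohesin only was 2882 bp, close to that of the regions without another target. An acetylated region with polymerase had the next one of its kind at a median of 320 bp.

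Other neighbours were nearer still. The median gap to any acetylated region was 362 bp, to any region of the 6 other targets 861 bp, to a CTCF or cohesin region 1414 bp, and to a polymerase region, acetylated or not, 1940 bp. The nearest acetylated region was another one without a target for 55.1%, one with polymerase and CTCF or cohesin for 19.6%, one with CTCF or cohesin only for 15.5% and one with polymerase only for 9.81%. Acetylated regions without another target therefore had most often one of their own kind next to them, although 63.0% of all acetylated regions had another target.

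When acetylated regions with gaps of up to 1 kb were joined into stretches, 31567 members (43.6%) lay in stretches made of members alone. A further 32580 (45.0%) lay in stretches that held polymerase, and 8223 (11.4%) in stretches that held CTCF or cohesin without polymerase. Stretches of members alone were small: 78.7% held a single region, their median length was 242 bp, and the largest held 13. Stretches with polymerase had a median length of 2219 bp. Members in stretches of members alone had median densities of 27.4 (DKO) and 28.8 (HCT116), with calls in both lines for 7.28%. In stretches with polymerase the median density of members in DKO was 43.6.

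The 12567 members with no base of another acetylated region within 2 kb of their midpoint had medians of 22.6 (DKO) and 23.4 (HCT116), with calls in both lines for 3.70%. In this set a centred window holds no other acetylated region. An M of 1 or more was found at 10.4% and an M of -1 or less at 10.9% of them, close to the shares over all members.

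The median density per window fell with distance from polymerase. The share of members whose centred window held another acetylated region fell too, from 97.2% under 1 kb to 42.9% at 100 kb or more. The densities of near members thus more often include reads of neighbours, and the part of these reads in the fall was not tested. The 23383 members under 1 kb from an acetylated region with polymerase had medians of 44.5 in DKO and 44.0 in HCT116, and 19.3% were called in both lines. At 1 to 5 kb the 20582 members had medians of 34.7 and 35.8, and at 5 to 20 kb the 16209 members had 31.3 and 34.1. At 20 to 100 kb, with 9909 members, the medians were 27.8 and 28.3. The 2287 members at 100 kb or more had medians of 24.7 in DKO and 18.8 in HCT116, and 4.85% were called in both lines. The medians of the lines at members lay closer together in each bin up to 100 kb than beyond it. The fall was not particular to members. With CTCF or cohesin only, the medians fell from 49.6 (DKO) and 51.2 (HCT116) under 1 kb to 27.6 and 26.1 at 100 kb or more. The share of those regions called in both lines fell from 35.8% to 13.7%.

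The distant members differed from the others in the balance between the lines. From the nearest to the farthest bin the median M was -0.03, -0.11, -0.18, -0.10 and 0.41. Under 1 kb the sign depended on the scaling, with 0.02 after centring on all acetylated regions, and in the other bins it was the same under each of the 3 other scalings. At 100 kb or more the 95% interval of the median was 0.30 to 0.49. There 36.3% of the members had an M of 1 or more and 19.8% an M of -1 or less. Called in DKO only were 55.1% of them, against 35.1%, 32.1%, 31.4% and 40.2% in the nearer bins, from the nearest outward. Over all members, a call in DKO only went with a median M of 0.61 and a call in HCT116 only with one of -0.49. Calls and M come from the same 2 libraries and are not separate results. The part of the calling in this balance was not tested. The shares past 2-fold did not rise steadily with distance. Toward DKO they were 13.1% under 1 kb, 7.81% at 1 to 5 kb, 7.20% at 5 to 20 kb and 14.5% at 20 to 100 kb, and toward HCT116 14.4%, 9.06%, 9.78% and 13.7%. Over all densities the share was highest at 100 kb or more in both directions. In the lowest quintile of mean log2 density this held toward DKO, with 42.2% at 100 kb or more and 26.1% under 1 kb. Toward HCT116 the order there was the reverse, with 23.9% at 100 kb or more and 45.6% under 1 kb. The members under 1 kb in that quintile had a median M of -0.80. At least 4-fold higher in DKO were 16.7% of the distant members, and at least 4-fold higher in HCT116 8.00%.

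Several measures moved with this difference, and their part in it was not tested. The distant members had low counts, with medians of 43 reads in DKO and 41 in HCT116. Within quintiles of mean log2 density their median M was 0.64 in the lowest quintile (1736 members), 0.11 in the next (338), then -0.04 (151) and 0.18 (54). Among the 111 distant members called in both lines it was 0.14 (-0.09 to 0.26), and among the 1103 with no other acetylated region within 2 kb of their midpoint it was 0.31. By chromosome the median M of distant members ran from -0.58 on chromosome 13 and -0.33 on chromosome X to 1.47 on chromosome 15, leaving out chromosome 21, the one with a higher median, and chromosome Y with 2 such members. Without chromosome 4, which had the lowest median M of members among the chromosomes other than Y, it was 0.41. The distant members were not far from all polymerase: the nearest polymerase region of any kind, acetylated or not, had a median gap of 16.4 kb, and the nearest CTCF or cohesin region one of 4.87 kb. Acetylated regions with CTCF or cohesin only at the same distance, 921 in number, had a median M of 0.08, and 23.6% of them were at least 2-fold higher in DKO. This difference between the classes was not tested, since regions are not replicates.

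**Figure D4:**
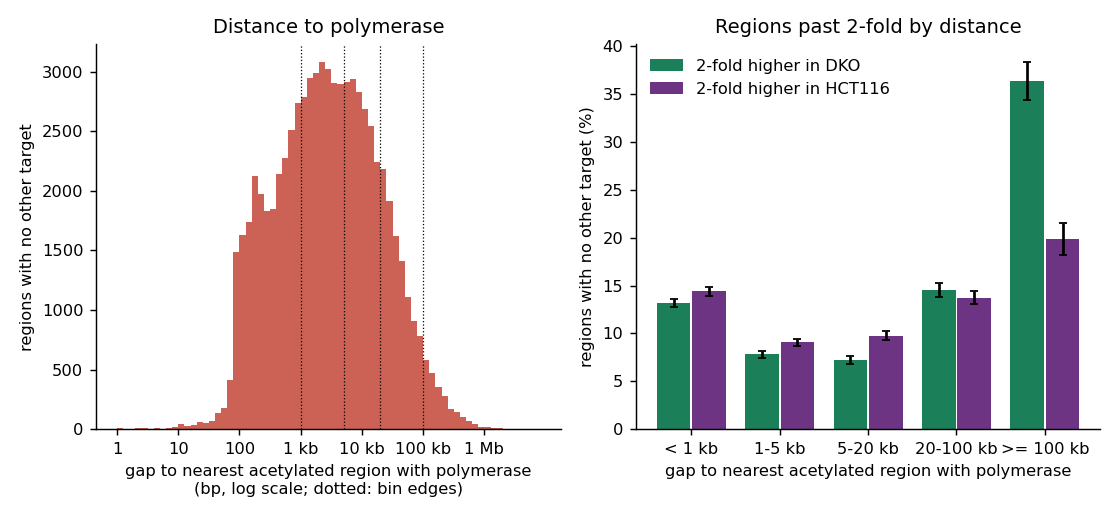
Left, number of acetylated regions with no other target by the gap to the nearest acetylated region with polymerase (bp, log scale; dotted lines are the edges of the distance bins); right, share (%) at least 2-fold higher in DKO (green) or in HCT116 (purple) in each bin, with Wilson 95% intervals that cover counting over regions only. The median gap is 2700 bp, and at 100 kb or more 36.3% are higher in DKO, against 14.5% at 20 to 100 kb and 7.20%, the lowest share, at 5 to 20 kb.

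The difference between the lines at a member ran with that at its nearest acetylated region with polymerase. Across members the Spearman correlation of the M values was 0.91 under 1 kb, where the centred windows overlapped for 80.0% of members, 0.65 at 1 to 5 kb, where they did for 3298 of 20582, 0.37 at 5 to 20 kb, 0.26 at 20 to 100 kb and 0.36 at 100 kb or more. From 2 to 20 kb, where windows centred on a member and its neighbour do not overlap, it was 0.46 (Pearson 0.55) over 28033 members with 13059 distinct neighbours. These values describe the 2 libraries, which all points share, and a neighbour can serve several members. In that range the 1989 members at least 2-fold higher in DKO had neighbours with a median M of 1.17, of which 54.2% were likewise higher in DKO, while 3.52% were higher in HCT116. The 2616 members at least 2-fold higher in HCT116 had neighbours with a median M of -0.97, of which 48.9% were also higher in HCT116 and 3.52% higher in DKO. The 15638 members with an M within 0.5 of 0 had neighbours with a median M of -0.03. Where a member and its neighbour were both past 2-fold, they were thus mostly higher in the same line.

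Medians over bins of 2 Mb ran together as well. In the 790 bins of 2 Mb with at least 20 members and 20 acetylated regions with polymerase, the medians of M of members and of polymerase regions had a Spearman correlation of 0.65 (Pearson 0.74), and member medians ran from -2.97 to 3.35. Each bin pools members at all distances from polymerase. Of all members, 30.4% had a centred window that overlapped that of the polymerase neighbour. Shared reads thus enter the bin medians, and their part in this correlation was not tested. The lowest bins lay on chromosome 4 at 30 to 32 Mb, where 89 members had a median M of -2.97 and 54 polymerase regions one of -3.53, and at 10 to 12 Mb, where 102 members had -2.96 and 53 polymerase regions -1.74. On chromosome 2 at 226 to 228 Mb 112 members had a median M of -2.23, and 63 polymerase regions had -2.15. The highest bins lay on chromosome 8 at 12 to 14 Mb, where 32 members had a median M of 3.35 and 23 polymerase regions one of 3.46, and on chromosome 16 at 34 to 36 Mb, where 28 members had 2.79. On chromosome 1 at 198 to 200 Mb the medians had opposite signs, 1.96 for 28 members and -0.70 for 20 polymerase regions. Copy number differences between the lines were not analysed here, and a gain or loss of DNA and a gain or loss of acetylation cannot be told apart from these densities.

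Chromosomes differed in how many acetylated regions lacked another target. The share was lowest on chromosome 19 at 25.4% and highest on chromosome 18 at 42.5%, leaving out chromosome Y with 18 acetylated regions. The median gap to polymerase was 1.40 kb on chromosome 19 and 4.16 kb on chromosome 18. The median M of members was lowest on chromosome 4 at -0.41 and chromosome 13 at -0.29, again leaving out Y, and highest on chromosome 20 at 0.05. On chromosome 4 28.9% of the members were at least 2-fold higher in HCT116, against 23.2% of all acetylated regions of that chromosome.

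At the edge of the rule, the 5090 members with another target within 100 bp had median densities of 39.2 in DKO and 40.8 in HCT116, and 14.1% were called in both lines. The 7129 acetylated regions just outside, with an overlap of 1 to 100 bp, had 37.0 and 38.8, and 11.1% were called in both lines. Regions on either side of the edge thus had like values.

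Single regions show the range. Those with the highest and lowest M were taken from the 23410 members whose higher density reached 51.5, the median of that value over the whole table. Their 95% intervals of M are exact Clopper-Pearson intervals of the reads, which cover counting error only, since PCR copies are not independent molecules. Positions are those of the files, in build hg19, and their genes and annotations were not analysed here. The 6 with the highest M were all called in DKO only.

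The highest M was at chr14:106937690-106937964, with 264 reads in DKO and 2 in HCT116 and an M of 6.80 (5.51 to 10.43). It lay 161 bp from an acetylated region with polymerase that had 261 and 1 reads, and the windows of both overlap. A second member there, chr14:106939111-106939477, had 238 reads in DKO and 4 in HCT116, an M of 5.90. The 8 other acetylated regions within 50 kb of the first were at least 2-fold higher in DKO, so a whole group of regions differed there.

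At chr4:20992831-20993043 the DKO library held 125 reads and the HCT116 library 1, an M of 6.36, and lay 125 bp from an acetylated region with polymerase. Near the end of chromosome 12, chr12:133705787-133705990 had 327 reads in DKO and 5 in HCT116, an M of 6.07, and its polymerase neighbour 218 bp away had 530 and 6. In both cases the polymerase neighbour was also strongly higher in DKO, with an M of 5.56 and 6.51. The centred windows of member and neighbour overlap in both cases, so they share reads.

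Another pair of strongly higher regions lay farther from acetylated regions with polymerase. At chr3:84157244-84158457, 439 kb from an acetylated region with polymerase, DKO had 99 reads and HCT116 had 1, an M of 6.04 (4.51 to 12.34). At chr9:23744916-23748821 DKO had 261 reads and HCT116 had 4, an M of 6.02 (4.97 to 8.23). With 3905 bp the latter was the longest of all members, its nearest acetylated region with polymerase lay 72.0 kb away, and no other acetylated region lay within 50 kb. Its reads are therefore not those of an acetylated neighbour. Polymerase regions without acetylation were nearer to both, at 28.8 kb and 25.3 kb.

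The lowest M was at chrX:10546479-10549496, 3017 bp long, with 0 reads in DKO and 198 in HCT116. With the DKO library set at a floor of 3 reads, the density would be 50.2-fold lower in DKO. The exact 95% interval of the reads of both libraries allows a smaller difference than that floor, with an upper bound of M of -5.34. Of the 12 other acetylated regions within 50 kb, 10 were at least 2-fold higher in HCT116 and 5 also had 0 reads in DKO. Loss of this DNA from DKO and loss of its acetylation cannot be told apart here.

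The other members with the lowest M kept a few reads in DKO. Region chr10:92075003-92076089 had 3 reads in DKO and 256 in HCT116, an M of -5.68, and chr1:84626506-84627261 had 1 and 126, an M of -5.60. Region chr1:66819553-66820669 had 2 and 139, an M of -5.18. These 3 had acetylated regions with polymerase at 79 bp, 1.41 kb and 130 bp, with an M of -6.82, -3.27 and -5.96.

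At chr4:11704613-11706920 the DKO library held 5 reads against 221, an M of -4.90, and chr2:227018206-227018972 had 5 and 215, an M of -4.86. All 33 other acetylated regions within 50 kb of the former, 28 of them without another target, and all 35 within 50 kb of the latter, 25 of them without another target, were at least 2-fold higher in HCT116. Both lie in the 2 Mb bins with low medians named above.

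The strongest members with like levels in the lines sat beside large polymerase-bound regions. Region chr10:95227093-95227331 had 814 reads in DKO and 768 in HCT116, an M of 0.13 (-0.01 to 0.27), and holds the highest member density in each line. It lay 97 bp from an acetylated region with polymerase that had 1026 and 1006 reads. Region chr8:142009674-142010092 had 455 and 518 reads, an M of -0.10, and chr19:47633228-47633672 had 394 and 391, an M of 0.12. Region chr17:75313863-75314078 had 379 and 341 reads, an M of 0.27. All 4 were between 71 and 114 bp from an acetylated region with polymerase, and each was under 450 bp long, so most of each 2 kb window lay outside the member.

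Of the other longest members, chrX:46440735-46444303 (3568 bp) had 4 reads in DKO and 149 in HCT116, an M of -4.57. Region chr17:66383293-66386858 (3565 bp) had 211 and 238 reads, an M of -0.02, and chr9:115514495-115517832 (3337 bp) had 192 and 166, an M of 0.38. The 4 longest thus held 1 strongly higher, 1 strongly lower and 2 similar regions.

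The members farthest from an acetylated region with polymerase were weak. At chr4:62329072-62329250, 3.78 Mb from the nearest acetylated region with polymerase, the DKO library held 32 reads against 3, an M of 3.46 (2.15 to 6.18), and chr4:61800081-61800446, at 3.74 Mb, had 41 and 5, an M of 3.19. A polymerase region without acetylation lay 11560 bp and 12018 bp from them. On chromosome Y, chrY:10023587-10023809 had 33 and 35 reads and chrY:10019395-10019577 had 36 and 12. On that chromosome the median M was -5.92 over 5 members, these 2 included, and -5.38 over acetylated regions with polymerase. The M of these 2 members was 0.23 and 1.87. Their nearest acetylated region with polymerase had 0 reads in DKO and 95 in HCT116. The origin of the DKO reads at these 2 members was not tested. All 4 of the farthest members were called in DKO only. No interval of M for the pair on chromosome 4 reached 0.

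**Figure D5:**
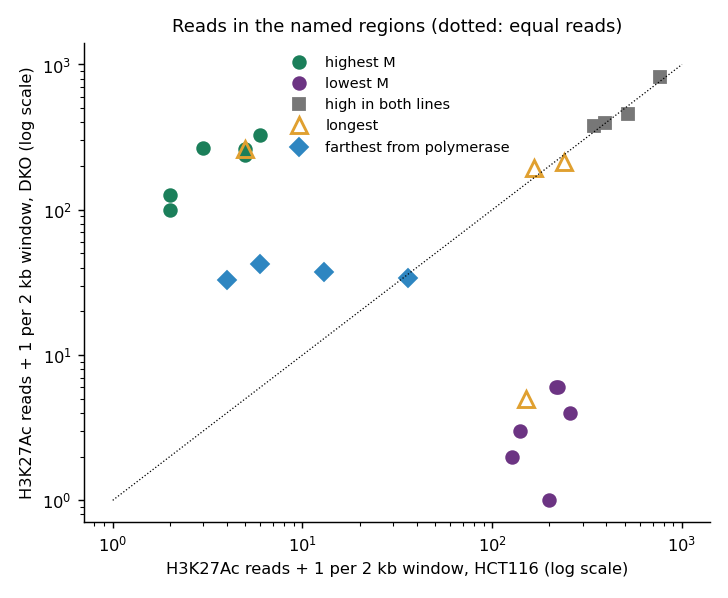
Reads plus 1 per 2 kb window in HCT116 (horizontal, log scale) and DKO (vertical, log scale) for the single regions described in the text, with 1 library per line; the dotted line marks equal reads before normalization. The members with the highest M have 99 to 327 reads in DKO and at most 5 in HCT116, those with the lowest M at most 5 in DKO and 126 to 256 in HCT116, and the strongest members called in both lines lie near the line.

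Members also came in long groups. When members were joined over gaps of up to 12.5 kb, 22284 groups resulted, and the 1424 groups with 10 or more members held 31.7% of all members. The largest, chr10:72384560-72542386, held 66 members over 157.8 kb, among 94 acetylated regions of which 19 had polymerase. Its members had median densities of 37.5 in DKO and 48.9 in HCT116 and a median M of -0.29, and 3 of them were at least 2-fold higher in HCT116, with 0 in DKO. The next largest, chr11:2725566-2888883, held 62 members over 163.3 kb, with median densities of 47.8 and 60.1 and a median M of -0.27. Of its members 47 had an M within 0.5 of 0, 2 were at least 2-fold higher in HCT116, with 0 in DKO. In both groups the shift between the lines was small and most members shared it, with upper quartiles of M of -0.08 and -0.11.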

How the data were processed

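Per the submitters' processing notes, reads were aligned with BWA to hg19 and MACS2 is named for every target but TotalRNAPol2; tool versions and the cut-offs for calling are not given in the labels. The authors deposited 1 table per target with regions, normalized read densities (a signal, per the file headers), M and A on a log2 scale and a p-value per region, which was used only as an alternative filter. M equalled the log2 density ratio. Reads were recovered from M and A: with a 2 kb window and 1 added to each count, 100% were whole within 0.05. Overlaps and gaps were computed with bedtools 2.31.1 and numpy 2.4.6. Shares have Wilson and medians order-statistic 95% intervals. Recovery, gaps and intervals were tested on simulated data. The 2 input libraries were not used here. Named regions were, among members whose higher density reached the median of the table, the 6 highest and 6 lowest by M, and among all members the 4 densest called in both lines with M within 0.5 of 0, the 4 longest, the 4 farthest from polymerase and the 2 largest groups. The members and lists were chosen with earlier results of these data known. Sequence features and gene context were planned and not analysed here.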

Additional observations from a re-analysis of the deposited data

How the results depend on the processing

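No paired analysis was possible because each line had 1 library per target. Other rules for what counts as without another target gave 32849 members with no other target within 1 kb, 125469 when the other targets' regions had to be called in both lines and 152853 when they needed a deposited p under 1e-05. The counts higher in DKO and higher in HCT116 moved by less than 1.5 times from the reported ones under the 3 other scalings. They were 14269 and 17194 at 1.5-fold, 2252 and 2226 at 4-fold, 3799 and 4074 with no other target within 1 kb, 3288 and 2496 at a higher density at or above the median, 242 and 192 among members called in both lines, 3574 and 3108 with a deposited p under 1e-05, 1308 and 1365 among members with no other acetylated region within 2 kb of their midpoint, and 3261 and 3633 in stretches of members alone. The latter setting, and leaving out chromosome 4, were chosen after seeing the data. The smaller counts come from fewer members or a stricter threshold by construction. The share higher in DKO of members past 2-fold changed sides with M centred on all acetylated regions (52.2%), chromosome medians removed (52.6%), at 4-fold (50.3%), at a higher density at or above the median (56.8%), among members called in both lines (55.8%) and with a deposited p under 1e-05 (53.5%). It was 42.7% with constant centring, 45.4% at 1.5-fold and 47.3% in stretches of members alone. The cause was not tested. The share called in both lines was 11.0% with no other target within 1 kb, 26.5% at a higher density at or above the median, 3.96% with a deposited p under 1e-05, 3.70% with no other acetylated region within 2 kb of the midpoint and 7.28% in stretches of members alone. Without the higher-density setting, the same settings gave median densities of 30.6, 38.5, 22.6 and 27.4 in DKO and of 32.2, 32.1, 23.4 and 28.8 in HCT116, and median gaps to polymerase of 6269, 693, 14245 and 9816 bp. The gap was 22442 bp to acetylated regions in all 3 polymerase tables, 5291 bp to those with Pol2Ser5 and 3824 bp between midpoints. The median M at 100 kb or more minus that at 5 to 20 kb was 0.59, and among members called in both lines it was 0.24. Over all members the 5 to 20 kb bin had the lowest median M, so the other bins differ less from the farthest one. With medians of 63 and 79 reads per window, small differences at single weak regions were not detectable at this depth.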
